A study of Homo sapiens with 6 samples.

Results

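KDR, PDGFRA, KIT, IGF1R, INSR, ERBB2 and ERBB3 are cell-surface receptors for growth factors, and they were taken by gene symbol from a table of RNA-seq counts. All 7 were found among the 16199 genes listed, and all 7 passed the filter on low counts. KDR and PDGFRA were chosen by their counts in these same libraries, for being higher in edited cells than in wild type. Their values against wild type are therefore a description with no test. The other 5 receptors were not chosen for a difference.

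The cells were H1, a human embryonic stem cell line. The first edited genotype was hemizygous for DICER1 S1344L (2 libraries), the other was homozygous for it (2 libraries), and both were made with CRISPR-Cas9 and set against wild-type H1 cells (2 libraries). The sample descriptions abbreviate the hemizygous genotype as pmfs and the homozygous one as pmpm, and do not spell these out. The study concerned the effects of this cancer hotspot change in DICER1, the enzyme that cuts mature microRNAs from hairpin precursors. The labels do not say whether the 2 libraries of a genotype came from separate cultures or clones, so the p-values measure only the spread between these libraries, which may be technical.

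Receptor tyrosine kinases bind a growth factor outside the cell, pair up, and phosphorylate each other inside it. Adaptors and lipid kinases then pass the signal to the RAS-ERK and PI3K-AKT pathways. In human embryonic stem cells, insulin, IGF and ERBB signals are known to help self-renewal, whereas KDR and PDGFRA are better known as markers of early mesoderm and its vascular and connective-tissue derivatives.

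The libraries held 38164848 to 52924532 counts. Levels are given in CPM, counts divided by a library size that was scaled with the trimmed mean of M values (TMM). DICER1, the edited gene, was at 118 and 96.4 CPM in hemizygous libraries 1 and 2, 129 and 118 CPM in homozygous libraries, and 169 and 126 CPM in wild-type libraries. Hemizygous libraries were below wild type, and homozygous 1 lay between the wild-type libraries. Its log2 fold change against wild type was -0.46 ± 0.19 in hemizygous and -0.26 ± 0.19 in homozygous cells (SE, edgeR adjusted p = 1.00 for both). Without wild type 1 these values were -0.23 and -0.024, and without wild type 2 they were -0.65 and -0.44. In the edgeR fit blocked on replicate number DICER1 was at -0.45 ± 0.10 in hemizygous cells (SE, unadjusted p = 0.00273, adjusted p = 0.999). In homozygous cells that fit gave -0.25 ± 0.10 (SE, unadjusted p = 0.0457, adjusted p = 0.412). Its unadjusted p was under 0.05 for 3.8% and 12% of all genes in these comparisons. A coding change of this kind is not checked by the gene's total count. The replicate number also separated libraries. The first principal component, with 58.7% of the variance, placed hemizygous 1 at -40.5 and wild type 1 at -35.1, and hemizygous 2 at 22.4 and wild type 2 at 20.9. Homozygous 1 and 2 were at 3.24 and 28.9.

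Because the edited enzyme makes microRNAs, the longest annotated 3′ untranslated region of each receptor was searched for matches to the seeds of 12 microRNAs (bases 2 to 8, perfect match on the transcript's strand only). MicroRNA levels were not analysed here. KDR matched 5 of the 12 seeds in 1682 bases, PDGFRA 2 in 2975, KIT 3 in 2158, IGF1R 6 in 7088, INSR 7 in 4801, ERBB2 1 in 618 and ERBB3 6 in 1450, beside a median of 2 seeds and 1407 bases over 13196 measured genes. Longer regions are more likely to hold a match. The microRNAs matched in KDR or PDGFRA, and let-7a-5p, a known regulator of IGF1R and INSR, are shown from RefSeq (GRCh38.p14) with the seed in capitals.
hsa-miR-302a-3p: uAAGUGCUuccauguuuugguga
hsa-miR-17-5p: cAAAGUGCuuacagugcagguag
hsa-miR-16-5p: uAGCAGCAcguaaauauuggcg
hsa-miR-200b-3p: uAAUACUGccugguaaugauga
hsa-miR-221-3p: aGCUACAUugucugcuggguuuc
hsa-miR-34a-5p: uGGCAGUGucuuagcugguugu
hsa-let-7a-5p: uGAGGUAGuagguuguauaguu

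The sites below give 8 bases on each side of the match, which is in capitals, with positions counted from the first base after the stop codon.
KDR, miR-16-5p, position 45: atgagaggTGCTGCTcagatttt
KDR, miR-200b-3p, position 1031: caacccatCAGTATTttagttat
KDR, miR-200b-3p, position 1381: ttttgtatCAGTATTatgtagca
KDR, miR-221-3p, position 1388: tcagtattATGTAGCataacaaa
KDR, miR-302a-3p, position 1552: aaaaacccAGCACTTtggggggc
PDGFRA, miR-34a-5p, position 2699: agctgtatCACTGCCttcgttta
PDGFRA, miR-17-5p, position 2757: taactgttGCACTTTtgaatgtc
IGF1R, let-7a-5p, position 2619: acatttatCTACCTCactcttat
IGF1R, let-7a-5p, position 6661: gagtttgtCTACCTCtgggtatc
INSR, let-7a-5p, position 2393: agcacagtCTACCTCagtgtatt

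KDR also matched miR-17-5p at position 1553, 1 base on from its miR-302a-3p match, since the seeds of these 2 microRNAs overlap. In KDR the miR-200b-3p match at 1381 ends where the miR-221-3p match at 1388 begins. Matches to miR-302a-3p were held by 25% of the 13196 regions, to miR-17-5p and to miR-16-5p by 25.2% each, to miR-200b-3p by 19.4%, to miR-34a-5p by 17.9%, to let-7a-5p by 11.2% and to miR-221-3p by 9.51%. KIT, a known target of miR-221, had 2 matches to miR-221-3p, 2 to miR-34a-5p and 1 to miR-302a-3p. ERBB2 had 1 match, to miR-125b-5p, and ERBB3 had 3 each to miR-302a-3p and miR-17-5p among its 10. In ERBB3 the miR-302a-3p matches at 664 and 822 overlap the miR-17-5p matches at 665 and 823, so these are not separate places. A match is a run of letters and not a site shown to act, and no test of these matches against the fold changes was made.

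The receptors spanned a wide range of abundance. Per kilobase of the longest annotated protein-coding transcript, over all 6 libraries, ERBB2 was highest at 97.5 ± 15.7 CPM per kb, followed by KDR at 54.9 ± 9.12, IGF1R at 21.0 ± 1.76, ERBB3 at 19.1 ± 2.39, KIT at 15.6 ± 2.53, INSR at 7.83 ± 0.645 and PDGFRA at 0.228 ± 0.0848 CPM per kb (SD, n = 6 libraries of 3 genotypes). The ranges of IGF1R (19.2 to 23.8) and ERBB3 (16.5 to 22.9) overlapped, as did those of ERBB3 and KIT (12.9 to 19.5 CPM per kb), so the order of these neighbours is not fixed beyond their spread. No other neighbours in the order overlapped. By total CPM, not corrected for length, 98.4% of the listed genes lay below ERBB2 and 97.3% below KDR, against 12.2% below PDGFRA.

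**Figure D1:**
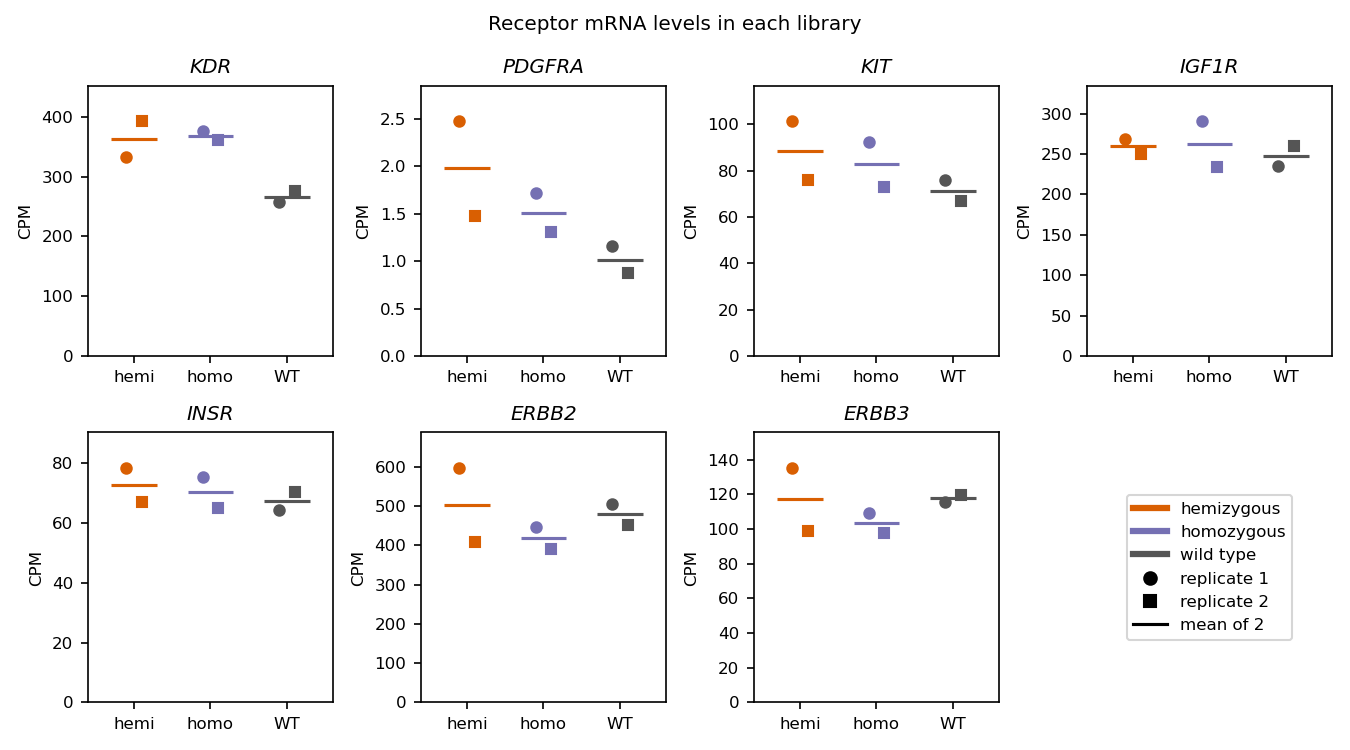
Level of each receptor in CPM (vertical axes from 0, a scale of their own per receptor) in hemizygous, homozygous and wild-type libraries. Circles are replicate 1, squares replicate 2, and bars the mean of 2. KDR sits at 333 to 393 CPM in the 4 edited libraries and at 257 and 276 CPM in wild type, while IGF1R and INSR mix across genotypes.

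KDR, the main signalling receptor for VEGFA, lies on chromosome 4 at 55078259 to 55125595 on the minus strand (GRCh38, GENCODE release 29). It had 333 and 393 CPM in hemizygous libraries 1 and 2, 376 and 361 CPM in homozygous libraries, and 257 and 276 CPM in wild-type libraries. All 4 edited libraries were above both wild-type libraries, and the lowest edited library was hemizygous 1. The means were 363 ± 42.5 CPM in hemizygous cells, 368 ± 11.1 CPM in homozygous cells, and 266 ± 13.0 CPM in wild-type cells (SD, n = 2 each). The log2 fold change against wild type was 0.45 ± 0.14 in hemizygous and 0.47 ± 0.14 in homozygous cells (SE), which is 1.36-fold and 1.38-fold. Its 3′ region holds the miR-302a-3p and miR-16-5p matches shown above, which were not particular to it. IGF1R had 2 matches to miR-302a-3p and 4 to miR-16-5p, and INSR had 1 and 4. ERBB3 had 3 and 0, KIT 1 and 0, and PDGFRA and ERBB2 had 0 of either. The smallest count behind the KDR levels was 10770, so counting error was small beside the spread between libraries.

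PDGFRA, the receptor for PDGF-A and related ligands, lies on the same chromosome at 54229097 to 54298247 on the plus strand. It was scarce. Its counts were 95 and 78 in hemizygous libraries 1 and 2, 78 and 53 in homozygous libraries, and 60 and 34 in wild-type libraries. These came to 2.48 and 1.48 CPM in hemizygous, 1.72 and 1.30 CPM in homozygous libraries, and 1.16 and 0.870 CPM in wild-type libraries. The edited libraries again all lay above the wild-type ones, but narrowly: the 95% Poisson interval of homozygous 2 ran from 0.977 to 1.71 CPM and that of wild type 1 from 0.883 to 1.49 CPM (exact, counting error only). Hemizygous 1 stood highest, with an interval of 2.004 to 3.03 CPM. The log2 fold change was 0.95 ± 0.37 in hemizygous and 0.57 ± 0.37 in homozygous cells (SE). Without hemizygous 1 the first of these was 0.55, and without homozygous 1 the other was 0.36. In bulk RNA, fewer cells that express a gene and less RNA per cell cannot be told apart.

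Across the whole table, all 4 edited libraries exceeded both wild-type libraries at 4.29% of genes. The choice of KDR and PDGFRA used this same difference, so nothing is read from their being among them. The choice was not made on the difference between homozygous and hemizygous cells. It did use the same edited libraries, so this comparison is not independent of it. There KDR differed by 0.02 ± 0.14 on the log2 scale (SE, 95% interval -0.31 to 0.35, edgeR adjusted p = 1.00), and PDGFRA by -0.38 ± 0.36 (95% interval -1.25 to 0.49, edgeR adjusted p = 1.00). Both genes overlapped between the 2 edited genotypes.

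KIT, the receptor for stem cell factor, is the gene between PDGFRA and KDR, at 54657918 to 54740715 on the plus strand. It had 101 and 75.9 CPM in hemizygous libraries 1 and 2, 92.5 and 73.0 CPM in homozygous libraries, and 75.9 and 66.9 CPM in wild-type libraries. Replicate 1 was higher than replicate 2 in every genotype. Hemizygous libraries did not overlap wild type, but hemizygous 2 and wild type 1 were nearly equal, and homozygous 2 fell between the wild-type libraries. The log2 fold change was 0.31 ± 0.19 in hemizygous cells (95% interval -0.15 to 0.78) and 0.21 ± 0.19 in homozygous cells (-0.25 to 0.68), with an edgeR adjusted p of 1.00 in both. In the edgeR fit blocked on replicate number it was 0.30 ± 0.098 in hemizygous cells (SE, unadjusted p = 0.0174, adjusted p = 0.999), 0.20 ± 0.098 in homozygous cells (unadjusted p = 0.0734, adjusted p = 0.449) and 0.25 ± 0.086 for the mean of both (unadjusted p = 0.0206, adjusted p = 0.609). KIT was thus under an unadjusted 0.05 in that fit in hemizygous cells and for the mean, where 3.8% and 7.46% of all genes were, and was not called after adjustment. Without hemizygous 1 the unblocked value in hemizygous cells was 0.10, and without homozygous 1 that in homozygous cells was 0.03.

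IGF1R and INSR, the receptors for insulin-like growth factors and insulin, lie on chromosome 15 (98648539 to 98964530, plus strand) and chromosome 19 (7112255 to 7294034, minus strand). IGF1R had 268 and 251 CPM in hemizygous libraries, 291 and 234 CPM in homozygous libraries, and 235 and 260.1 CPM in wild-type libraries. INSR had 78.6 and 66.9 CPM in hemizygous, 75.3 and 65.2 CPM in homozygous libraries, and 64.3 and 70.5 CPM in wild-type libraries. For both genes the genotypes overlapped, and replicate 1 was the higher library in edited cells and the lower one in wild type. The log2 fold changes of IGF1R were 0.07 in hemizygous (95% interval -0.29 to 0.43) and 0.09 in homozygous cells (-0.28 to 0.45). Those of INSR were 0.11 (-0.25 to 0.47) and 0.06 (-0.30 to 0.42). All 4 had an edgeR adjusted p of 1.00, and the intervals leave room for changes up to about the size seen for KDR.

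ERBB2 and ERBB3 form a signalling pair, in which ERBB3 binds neuregulins and ERBB2, which has no known ligand, supplies most of the kinase activity. They lie on chromosome 17 (39687914 to 39730426, plus strand) and chromosome 12 (56076799 to 56103505, plus strand). ERBB2 had 598 and 408 CPM in hemizygous libraries, 448 and 392 CPM in homozygous libraries, and 506 and 453 CPM in wild-type libraries. ERBB3 had 135 and 99.1 CPM in hemizygous, 109 and 97.6 CPM in homozygous libraries, and 116 and 119.8 CPM in wild-type libraries. For both genes hemizygous 1 was the highest of all libraries and homozygous 2 the lowest. The 2 hemizygous libraries lay on either side of wild type, and both homozygous libraries were below both wild-type ones. The log2 fold changes in homozygous cells were -0.19 ± 0.20 for ERBB2 (95% interval -0.68 to 0.29) and -0.19 ± 0.18 for ERBB3 (-0.61 to 0.23). In hemizygous cells they were 0.07 ± 0.20 (-0.41 to 0.55) and -0.01 ± 0.18 (SE; -0.43 to 0.41), and all 4 had an edgeR adjusted p of 1.00. Reads from PGAP3 and MIEN1, which overlap ERBB2 on the other strand, cannot be told apart there in libraries made without strand information. Annotated genes also overlap PDGFRA (AC058822.1, same strand), ERBB3 (AC034102.2, same strand), KDR (AC111194.2, other strand) and IGF1R (genes on both strands). None of these was found among the genes counted, and how reads shared with them were assigned is not known.

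**Figure D2:**
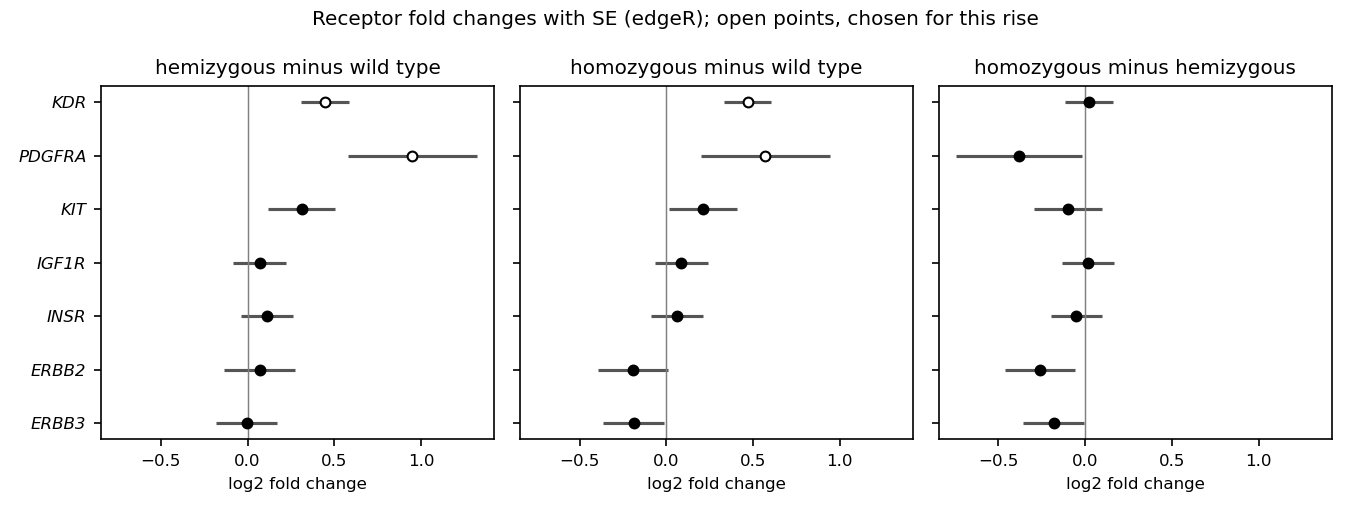
Log2 fold change of each receptor in 3 comparisons (horizontal axis), with bars for 1 SE of the edgeR fit on 6 libraries. Open points are KDR and PDGFRA against wild type, which were chosen for this difference. Of the other receptors KIT lies farthest to the right against wild type, at 0.31 and 0.21, and ERBB2 and ERBB3 lie left of 0 in homozygous cells.

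Among the 5 receptors not picked for a difference, none passed in any comparison. The edgeR quasi-likelihood test called 0 of 16199 genes (0%) in hemizygous against wild type, with 141 genes (0.87%) at an unadjusted p under 0.05 and none of the 5 among them. It likewise called 0 genes (0%) in homozygous against wild type (435 genes, 2.69%, unadjusted), 0 (0%) for the mean of both edited genotypes against wild type (314 genes, 1.94%) and 0 (0%) in homozygous against hemizygous (124 genes, 0.765%), and none of the 5 was among the genes at an unadjusted p under 0.05 in these either. DESeq2 called 7 genes (0.0432%) in hemizygous against wild type and 10 genes (0.0617%) in each of the other 3 comparisons, and limma-voom called 0 (0%) in each. In edgeR, blocking on the replicate number gave 1 gene (0.00617%) in hemizygous against wild type, 1 (0.00617%) in homozygous against hemizygous and 0 in the other two. Its unadjusted p was under 0.05 for 12% of genes in homozygous against wild type and 8.2% in homozygous against hemizygous, with none of the 5 among them, and KIT was the one of the 5 among those in the other comparisons. In DESeq2 the same block gave 23 genes (0.142%) in hemizygous against wild type, 126 (0.778%) in homozygous against wild type, 58 (0.358%) for the edited mean and 24 (0.148%) in homozygous against hemizygous. None of these fits called any of the 5. By separation of libraries, 1 of the 5 (KIT) was above wild type in both hemizygous libraries, against 8.13% of all genes, and 0 were below, against 9.21%. In homozygous cells 0 of the 5 were above, against 14.2%, and 2 (ERBB2 and ERBB3) were below, against 13.6%. For both edited genotypes together no member of the 5 was separated from wild type in either direction (4.29% and 4.58% of all genes). Between homozygous and hemizygous libraries every one of the 7 receptors overlapped (11% of all genes were higher and 10.4% lower). The median log2 fold change of the 5 was 0.07 in hemizygous and 0.06 in homozygous cells, beside 0.00 over all genes in both.

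Several receptors also differed by replicate number. PDGFRA, KIT and ERBB2 were lower in replicate 2 than in replicate 1 in all 3 genotypes, which was so for 29.9% of all genes. Within hemizygous cells, replicate 2 minus replicate 1 was -0.74 for PDGFRA, -0.55 for ERBB2, -0.45 for ERBB3 and -0.42 for KIT on the log2 CPM scale, whereas it was 0.24 for KDR. Taken within a replicate number, KDR was higher in hemizygous than in wild-type cells by 0.37 in replicate 1 and 0.51 in replicate 2. In homozygous cells it was higher by 0.55 and 0.39. KDR was chosen for being higher in edited cells, so nothing is read from these signs. KIT was higher by 0.42 and 0.18 in hemizygous and by 0.29 and 0.13 in homozygous cells. IGF1R and INSR changed sign between the replicate numbers in both genotypes: IGF1R was at 0.31 and -0.15 in homozygous minus wild type, and INSR at 0.23 and -0.11. ERBB3 did so in hemizygous cells (0.23 and -0.27), as did ERBB2 (0.24 and -0.15), while in homozygous cells both were below 0 in each replicate number (-0.08 and -0.30 for ERBB3, -0.18 and -0.21 for ERBB2).

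**Figure D3:**
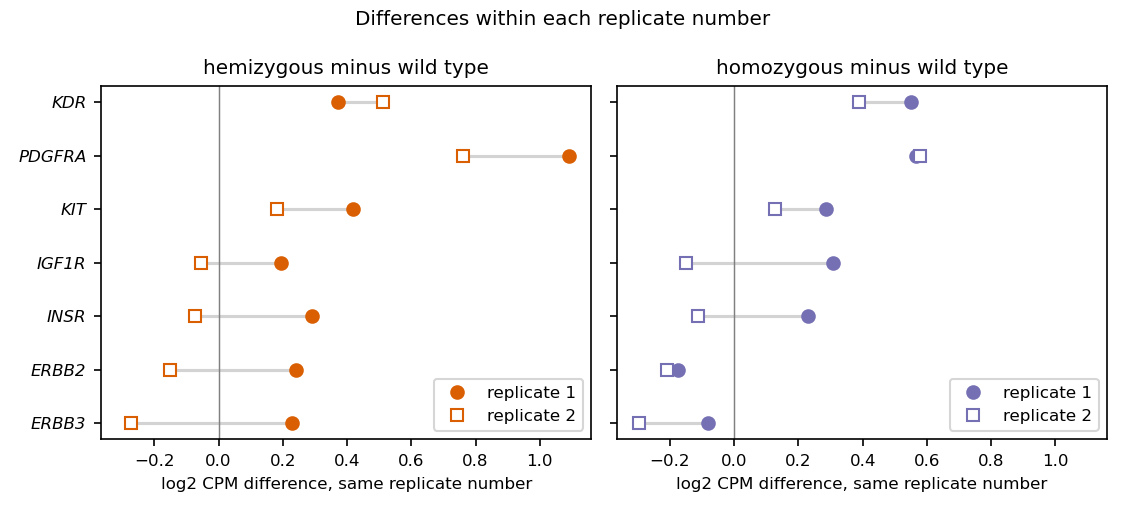
Difference in log2 CPM between an edited and a wild-type library with the same replicate number (horizontal axis), for each receptor. Filled circles are replicate 1 and open squares replicate 2. KDR and PDGFRA, chosen for being higher in edited cells, lie right of 0 in both. KIT also lies right of 0 in both, and IGF1R and INSR lie on both sides.

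PDGFRA, KIT and KDR are neighbours in the genome, so the genes around them were compared. Of the 3 nearest measured genes on each side, FIP1L1, an mRNA polyadenylation factor, LNX1, a ubiquitin ligase, and CHIC2 precede PDGFRA. SRD5A3, which makes dolichol for protein glycosylation, TMEM165, a Golgi protein, and CLOCK, a circadian transcription factor, follow KDR. Their log2 fold changes ran from -0.05 to 0.16 in hemizygous minus wild type (median 0.03) and from -0.02 to 0.21 in homozygous minus wild type (median 0.05). TMEM165, next but one to KDR, had 95.1 and 99.8 CPM in hemizygous, 94.3 and 118 CPM in homozygous libraries, and 92.2 and 91.2 CPM in wild-type libraries. KDR and PDGFRA, chosen for it, had larger log2 fold changes than all 6 neighbours in each edited genotype. KIT lay above them in hemizygous cells and level with TMEM165 in homozygous cells, both at 0.21. No test of this stretch was made.

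**Figure D4:**
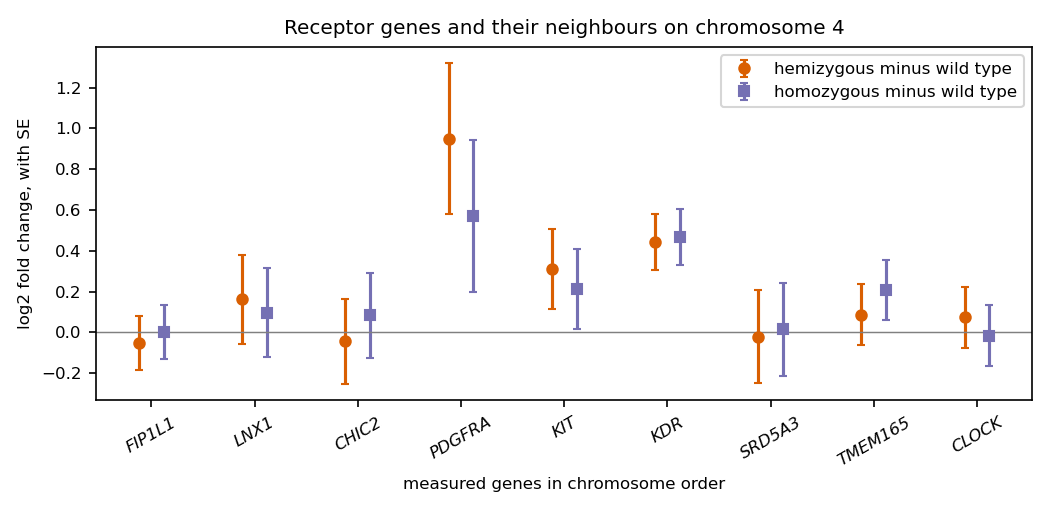
Log2 fold change against wild type with 1 SE (vertical axis) for the measured genes from FIP1L1 to CLOCK in their order on chromosome 4. Circles are hemizygous and squares homozygous cells. PDGFRA and KDR, chosen for this difference, lie above the 6 flanking genes, which lie between -0.05 and 0.21, and KIT lies at 0.31 and 0.21.

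The genes that feed the receptors and carry their signals were read from lists, and edgeR called 0 members of any list in any of the 4 comparisons. The list medians below rest on few libraries: without wild type 1, those of the KIT, insulin, IGF and ERBB ligands (0.15), co-receptors (0.14), other receptor tyrosine kinases (0.03), RAS-ERK transducers (0.04), PI3K-AKT transducers (0.04) and inhibitors (0.03) were above 0. That of the VEGF and PDGF ligands ran from -0.10 to -0.0048 over the left-out libraries, and that of other receptors of the same families from -0.37 to -0.20. Among VEGF and PDGF ligands, 8 of 9 were measured, and 3 were higher and 5 lower by sign in the mean of both edited genotypes minus wild type (median log2 fold change -0.03, beside -0.0059 over all genes). VEGFA, the ligand of KDR, had 58.6 and 60.6 CPM in hemizygous, 76.1 and 63.1 CPM in homozygous libraries, and 65.7 and 65.1 CPM in wild-type libraries. PDGFA, the ligand of PDGFRA, had 85.8 and 110.8 CPM in hemizygous, 102 and 104 CPM in homozygous libraries, and 85.7 and 122 CPM in wild-type libraries, so the genotypes overlapped. PDGFB, another PDGF chain, was lower in all edited libraries, with 5.74 and 5.16 CPM in hemizygous and 5.88 and 6.38 CPM in homozygous against 9.12 and 7.67 CPM in wild-type libraries. Its log2 fold change was -0.54 ± 0.17 for the edited mean (SE, edgeR adjusted p = 1.00). VEGFB and PDGFC, also ligands of these families, had log2 fold changes of 0.03 and -0.35.

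Among the ligands of KIT, the insulin and IGF receptors and ERBB receptors, 7 of 15 were measured, and 2 were higher and 5 lower by sign (median -0.12). KITLG, stem cell factor, had 34.7 and 20.9 CPM in hemizygous, 18.3 and 17.3 CPM in homozygous libraries, and 34.3 and 21.9 CPM in wild-type libraries. It was therefore high in replicate 1 of hemizygous and wild-type cells and low in the other 4 libraries. NRG3, a neuregulin that binds ERBB4, was higher in every edited library, with 11.4 and 12.7 CPM in hemizygous and 12.7 and 12.3 CPM in homozygous against 10.5 and 11.2 CPM in wild-type libraries (log2 fold change 0.19 ± 0.14, SE, edgeR adjusted p = 1.00). TGFA and EGF, both ligands of EGFR, had log2 fold changes of 0.14 ± 0.24 and -0.49 ± 0.40 (SE).

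Other receptors of the same families (5 of 8 measured) had a median log2 fold change of -0.36, with 1 higher and 4 lower by sign. FLT1, a VEGF receptor that acts largely as a decoy, had 180.04 and 142 CPM in hemizygous, 146 and 126 CPM in homozygous libraries, and 156 and 155 CPM in wild-type libraries. FLT4, the receptor for VEGFC, had 21.1 and 30.5 CPM in hemizygous, 26.1 and 32.3 CPM in homozygous libraries, and 21.4 and 31.5 CPM in wild-type libraries. FLT1 was below wild type in both homozygous libraries, and FLT4 overlapped in all comparisons. PDGFRB, the partner of PDGFRA, had 15.1 and 7.82 CPM in hemizygous and 7.27 and 9.13 CPM in homozygous against 16.3 and 13.2 CPM in wild-type libraries. Its log2 fold change in homozygous cells was -0.85 ± 0.33 (SE, edgeR adjusted p = 1.00). ERBB4, at most 1.84 CPM in any library, had a log2 fold change of -0.46 ± 0.38 for the edited mean (SE). EGFR, named after its values were seen, had 10.4 and 9.26 CPM in hemizygous and 6.90 and 6.87 CPM in homozygous against 10.6 and 10.5 CPM in wild-type libraries. Its log2 fold change in homozygous cells was -0.62 ± 0.18 (SE, edgeR adjusted p = 1.00).

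Among co-receptors, decoys and binding proteins (12 of 13 measured, 4 higher and 8 lower by sign, median -0.15), IGFBP5, which binds insulin-like growth factors, was lower in all edited libraries. It had 5.76 and 7.46 CPM in hemizygous and 5.49 and 5.98 CPM in homozygous against 9.49 and 12.1 CPM in wild-type libraries. The log2 fold change for the edited mean was -0.81 ± 0.19 (SE, edgeR adjusted p = 1.00). DESeq2 blocked on replicate number called it in homozygous cells (adjusted p = 0.0152) and for the edited mean (adjusted p = 0.0168). IGFBP3, a related binding protein named after its values were seen, was higher in all edited libraries, with 7.82 and 7.496 CPM in hemizygous and 6.57 and 7.41 CPM in homozygous against 5.51 and 4.55 CPM in wild-type libraries. IGFBP7 was high in replicate 1 of hemizygous and wild-type cells and low in the other 4 libraries, with 5.48 and 0.550 CPM in hemizygous, 0.947 and 0.960 CPM in homozygous libraries, and 7.60 and 0.819 CPM in wild-type libraries. IGFBP2, IGF2R, which clears IGF2, and HSPG2, a heparan sulphate proteoglycan, had log2 fold changes of 0.19, -0.05 and -0.22.

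The other receptor tyrosine kinases (36 of 43 measured) were higher by sign in 15 and lower in 21 cases, with a median of -0.06. FGFR1 had 278 and 296 CPM in hemizygous, 264 and 303 CPM in homozygous libraries, and 264 and 418 CPM in wild-type libraries. FGFR2 was above wild type in every edited library (160.2 and 173 CPM in hemizygous and 191 and 169 CPM in homozygous against 152 and 158 CPM in wild type), at a log2 fold change of 0.16 ± 0.11 (SE, edgeR adjusted p = 1.00). PTK7, a planar polarity receptor, and EPHA3, an ephrin receptor, had log2 fold changes of -0.12 ± 0.12 and 0.62 ± 0.74 (SE). EPHA3 was scarce, with 0.808 and 0.304 CPM in hemizygous, 1.56 and 0.320 CPM in homozygous, and 0.636 and 0.281 CPM in wild-type libraries. In this list 2 of 36 genes were above and 3 below wild type in all edited libraries, beside 4.29% and 4.58% of all genes.

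Of the adaptors and RAS-ERK transducers 18 of 19 were measured (8 higher, 10 lower by sign, median -0.01). NRAS, a RAS protein, had 206 and 157 CPM in hemizygous, 187 and 134 CPM in homozygous libraries, and 151 and 121 CPM in wild-type libraries, a log2 fold change of 0.33 for the edited mean. PLCG1, PTPN11, SHC1 and SOS1, which link receptors to RAS and to calcium signalling, had log2 fold changes of -0.0010, -0.10, -0.14 and -0.23. Of the PI3K-AKT transducers 17 of 19 were measured (4 higher, 13 lower by sign, median -0.06). IRS4, an adaptor of insulin and IGF receptors, had 105 and 85.8 CPM in hemizygous, 90.9 and 93.3 CPM in homozygous libraries, and 88.6 and 65.4 CPM in wild-type libraries. MTOR, AKT1, AKT2 and FOXO3 had log2 fold changes of -0.09, -0.18, -0.04 and -0.20. Of the receptor inhibitors and down-regulators 21 of 23 were measured (7 higher, 14 lower by sign, median -0.06). SOCS1, a cytokine-signalling inhibitor, had 31.4 and 30.2 CPM in hemizygous and 40.3 and 50.6 CPM in homozygous against 23.7 and 36.1 CPM in wild-type libraries. The DESeq2 fit blocked on replicate number called it in homozygous cells (adjusted p = 0.0426). CBL, a ubiquitin ligase of active receptors, GRB10, HGS and LRIG3 had log2 fold changes of -0.01, -0.18, -0.01 and -0.54. For LRIG3 the SE was 0.34, with 8.47 and 4.33 CPM in hemizygous, 3.90 and 4.14 CPM in homozygous, and 9.33 and 5.32 CPM in wild-type libraries.

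**Figure D5:**
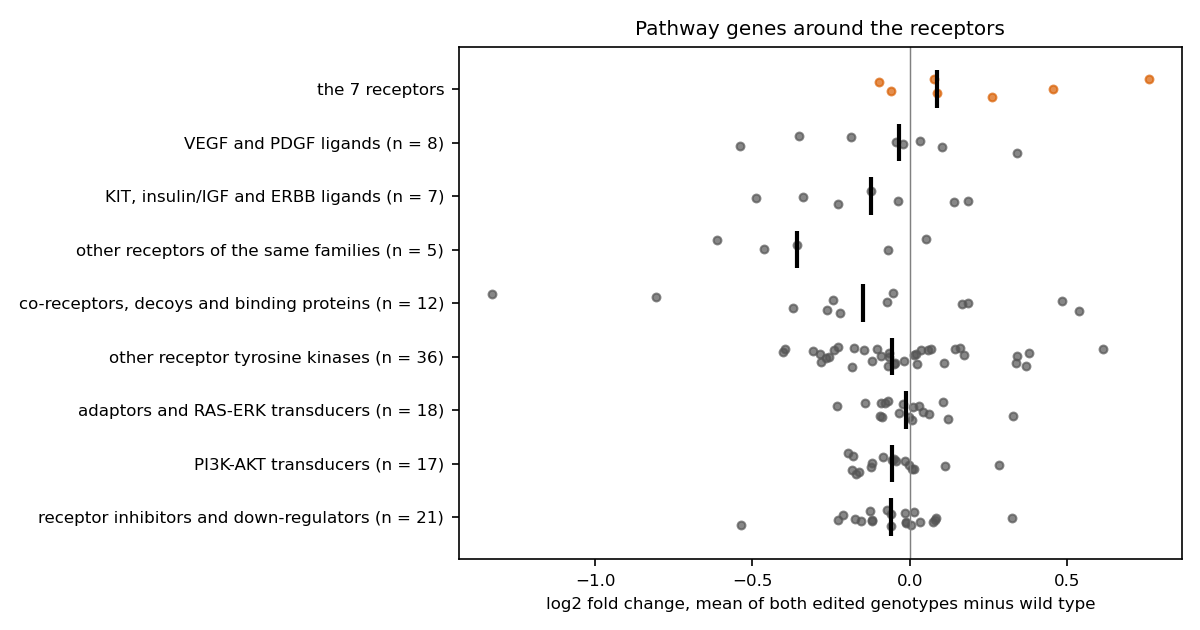
Log2 fold change of the mean of both edited genotypes minus wild type (horizontal axis) for the 7 receptors and for each pathway list. Each point is a gene and each black bar the median. KDR at 0.46 and PDGFRA at 0.76 were chosen for this difference, so their place is fixed by that choice. The list medians lie between -0.36 and -0.01.

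Markers of the labelled cell type were present, and all 10 pluripotency markers were measured. Their CPM summed to 10192 to 11142 in hemizygous, 9870.4 to 10229.9 in homozygous and 9510 to 9835 in wild-type libraries. Every edited sum was above both wild-type ones, but the lowest homozygous sum was close to the highest wild-type sum. By gene, 2 of the 10 were above wild type in all edited libraries and 0 below, beside 4.29% and 4.58% of all genes. DNMT3B, PODXL and LIN28A had log2 fold changes of 0.09, -0.02 and 0.24 for the edited mean. POU5F1, which may share reads with near-identical pseudogenes, had 84.4 and 128 CPM in hemizygous, 107 and 129 CPM in homozygous libraries, and 87.9 and 88.0 CPM in wild-type libraries. KDR and PDGFRA are also marks of mesoderm and of vessels. Of 12 mesoderm and primitive streak markers 5 were measured, among them TBX6, MIXL1, GATA2 and MESP1, and their CPM summed to 8.37 to 11.6 in hemizygous, 11.1 to 12.7 in homozygous and 9.49 to 9.85 in wild-type libraries. TBXT, EOMES and HAND1 are on the list but were not found by these symbols among the 16199 genes counted. Every gene counted exceeds 0.5 CPM in at least 3 libraries. Of 14 endothelial markers 7 were measured, without PECAM1 and CDH5, and their CPM summed to 35.7 to 98.1 in hemizygous, 33.1 to 40.5 in homozygous and 41.1 to 79.6 in wild-type libraries. Most of that sum was TEK, a receptor of vessels, which was high in the same 2 libraries (83.3 and 23.6 CPM in hemizygous, 27.1 and 21.2 CPM in homozygous libraries, and 67.7 and 27.2 CPM in wild-type libraries). TIE1, VWF, ERG and ETV2 each stayed below 7 CPM in every library.

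Further cell types that use these receptors were read in the same way. Extraembryonic and definitive endoderm had 3 of 10 measured (COL4A1, AFP and CXCR4, without GATA4, GATA6 and SOX17), summing to 244 to 330 CPM in hemizygous, 231 to 281 in homozygous and 269 to 293 in wild-type libraries. Nearly all of this endoderm sum was COL4A1, with 323 and 241 CPM in hemizygous, 279 and 229 CPM in homozygous, and 287 and 267 CPM in wild-type libraries. AFP reached at most 4.41 CPM and CXCR4 at most 2.16 CPM in any library. Fibroblast and pericyte markers had 6 of 10 measured, summing to 759 to 903 CPM in hemizygous, 681 to 722 in homozygous and 826 to 911 in wild-type libraries, with THY1, COL1A1, COL1A2 and RGS5 at log2 fold changes of -0.30, -0.07, -0.24 and 0.42 for the edited mean. DESeq2 blocked on replicate number called RGS5 in hemizygous cells (adjusted p = 0.0149). Of 7 oligodendrocyte lineage markers 4 were measured, without OLIG1, OLIG2 and NKX2-2. Among them, MBP, CSPG4 and SOX10 had log2 fold changes of -0.11, -0.32 and 0.25 for the edited mean. Of markers of melanocytes and mast cells, which depend on KIT, 2 of 10 were measured: PMEL summed with MITF to 107 to 121 CPM in hemizygous, 118 to 122 in homozygous and 98.1 to 98.4 in wild-type libraries. Nearly all of that sum was PMEL, which was higher in every edited library. MITF had 2.76 and 0.759 CPM in hemizygous, 0.881 and 0.443 CPM in homozygous libraries, and 1.81 and 0.691 CPM in wild-type libraries. Its log2 fold change was 0.46 ± 0.71 in hemizygous and -0.92 ± 0.75 in homozygous cells (SE), and the genotypes overlapped. The part of these markers in the receptor values was not tested.

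By profile over the 6 libraries, the genes nearest to KDR were CENPQ, a kinetochore protein gene, GIN1 and SEPTIN3, a septin gene. Their centred log2 CPM differed from that of KDR by root mean squares of 0.0325, 0.0608 and 0.0683, beside a range of 0.61 for KDR itself. CENPQ had 22.3 and 25.01 CPM in hemizygous, 24.0 and 24.2 CPM in homozygous libraries, and 17.2 and 18.2 CPM in wild-type libraries. Nearest to PDGFRA were FBXL13, an F-box gene, ENSG00000289436 and ENSG00000272070, with root mean squares of 0.156, 0.156 and 0.157 beside a range of 1.498. These 3 were likewise scarce, FBXL13 having 1.38 and 0.949 CPM in hemizygous, 0.837 and 0.812 CPM in homozygous libraries, and 0.790 and 0.512 CPM in wild-type libraries. The likeness was taken over 6 libraries, which share replicate numbers and differ in depth, and the nearest of 16199 genes are close by selection.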

How the data were processed

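RNA-seq libraries of total RNA were prepared from H1 cells with an unstranded TruSeq kit, as the labels' protocols state. Reads were trimmed (cutadapt) and mapped to hg38 (HISAT2), per the submitters' processing notes. The sources used here name neither the counting program nor its annotation. The deposited values are raw counts per gene with no normalization, and every gene exceeds 0.5 CPM in at least 3 libraries.

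Counts of all 6 libraries were tested with edgeR 4.0.16 in R 4.3.3 (TMM, quasi-likelihood test, 3 residual degrees of freedom). The filterByExpr filter removed 0 genes. P-values were Benjamini-Hochberg adjusted over 16199 genes at 0.05. SE is the log2 fold change divided by the root of the F statistic, and intervals cover 95%. DESeq2 1.42.0, limma-voom (limma 3.58.1), other scalings, filters and left-out libraries were alternatives. The scripts were tested on simulated data.

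Replicate numbers come from the sample titles, which do not say what they mark. Same-numbered libraries deviated together (correlations across genes of 0.736 for hemizygous and wild type, 0.354 for homozygous and wild type, 0.472 for homozygous and hemizygous). Fits blocked on replicate number were therefore run as alternatives. The main fit had no block, and SE, fold change intervals and edgeR p-values come from it except where the block is named. No libraries were copies of each other (chi-square per degree of freedom 11.5 to 97.4).

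Positions, transcript lengths and 3′ regions of at least 30 bases came from GENCODE 29 (15926 genes matched), and microRNAs from RefSeq. Members and lists were chosen with earlier results of these data known. Named genes were the receptors, DICER1, in each list the 3 of highest CPM and the 2 with the largest change in the edited mean, the 3 nearest profiles, and 3 genes on each side on chromosome 4. A marker gene that meets this rule is not reported here. Log2 CPM used a prior count of 0.5. Intervals on counts cover counting error only, and reads carry no molecular identifiers. Figures used Python 3.11.15, pandas 2.3.3 and matplotlib 3.10.9.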

Additional observations from a re-analysis of the deposited data

How the results depend on the processing

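The edgeR test called 0 genes in each comparison, and this held with RLE or total-count scaling, no filter, a mean CPM of at least 1, limma-voom and, for pairs of genotypes, fits of only the genotypes compared. With a replicate block edgeR called 1 gene in hemizygous minus wild type and 1 in homozygous minus hemizygous. In hemizygous minus wild type DESeq2 called 7 genes, 23 with the block, and leaving out single libraries gave 0 to 2 in edgeR. In homozygous minus wild type the counts were 10, 126 and 0 to 1, for the edited mean 10, 58 and 0 to 2, and in homozygous minus hemizygous 10, 24 and 0 to 3. The cause was not tested.

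No receptor outside KDR and PDGFRA was called under any alternative, and sign changes came only from leaving out a library. In hemizygous minus wild type the log2 fold change of INSR then ran from -0.00083 to 0.22, ERBB2 from -0.22 to 0.32 and ERBB3 from -0.24 to 0.20. In homozygous minus wild type IGF1R ran from -0.078 to 0.23 and INSR from -0.047 to 0.16. For the edited mean IGF1R ran from -0.0047 to 0.16, ERBB2 from -0.20 to 0.064 and ERBB3 from -0.21 to 0.0071. In homozygous minus hemizygous KDR ran from -0.090 to 0.15, PDGFRA from -0.71 to 0.032, KIT from -0.29 to 0.12, IGF1R from -0.15 to 0.16, INSR from -0.16 to 0.071, ERBB2 from -0.51 to 0.043 and ERBB3 from -0.39 to 0.062. KDR against wild type stayed between 0.32 and 0.57 in hemizygous and 0.43 and 0.53 in homozygous cells, PDGFRA between 0.55 and 1.28 and between 0.36 and 0.80, and KIT between 0.10 and 0.50 and between 0.03 and 0.37. KDR and PDGFRA were chosen for this difference in these same libraries, so nothing is read from their staying above 0. With 2 libraries a genotype, and as few as 34 counts for PDGFRA, small differences could not be resolved.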

Other observations

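Of 158 listed genes measured, 7 (4.43%) were above wild type in all 4 edited libraries and 11 (6.96%) below, beside 4.29% and 4.58% of all genes. Those of them outside the naming rule and not given above follow as values, named after their values were seen. AXL, the receptor for GAS6, had 77.0 and 51.4 CPM in hemizygous and 61.8 and 50.2 CPM in homozygous against 47.0 and 47.8 CPM in wild-type libraries. MST1R, the receptor for macrophage-stimulating protein, had 5.27 and 5.37 CPM in hemizygous and 5.66 and 6.20 CPM in homozygous against 7.04 and 6.24 CPM in wild-type libraries. EPHB1, an ephrin receptor, had 5.37 and 4.84 CPM in hemizygous and 5.001 and 3.72 CPM in homozygous against 5.996 and 5.68 CPM in wild-type libraries. FGFR3 had 34.9 and 34.5 CPM in hemizygous and 29.3 and 32.3 CPM in homozygous against 35.6 and 43.1 CPM in wild-type libraries. PGF, a VEGF-family ligand, had 3.86 and 4.63 CPM in hemizygous and 4.12 and 4.53 CPM in homozygous against 4.69 and 5.07 CPM in wild-type libraries. ARAF, a RAF kinase, had 37.9 and 39.02 CPM in hemizygous and 39.9 and 36.8 CPM in homozygous against 40.7 and 40.4 CPM in wild-type libraries. PHLDA1 had 49.02 and 53.9 CPM in hemizygous and 52.5 and 55.4 CPM in homozygous against 55.5 and 61.7 CPM in wild-type libraries. SALL4, a pluripotency factor, had 261 and 257 CPM in hemizygous and 269.9 and 253 CPM in homozygous against 235 and 234 CPM in wild-type libraries. TDGF1, a NODAL co-receptor, had 747 and 828 CPM in hemizygous and 766 and 844 CPM in homozygous against 745 and 636 CPM in wild-type libraries. The edgeR adjusted p for the edited mean was 1.00 for each of these genes.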
